A study of Mus musculus with 12 samples.

Results

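Oxidative phosphorylation genes were taken as the genes whose symbol in the platform annotation began with Nduf, Uqcr, Sdh or Atp5, or with Cox4, Cox5, Cox6, Cox7 or Cox8. This gave 94 of the 18193 genes that had a probe set mapped to 1 gene alone, and of a gene's probe sets the 1 with the greatest average signal stood for it. Complex I held 42 of the genes (6 core subunits, 28 accessory subunits and 8 Ndufaf assembly factors), complex II held 8, complex III held 8, complex IV held 19 and complex V held 17. The complex IV genes include Ndufa4, which carries a complex I name but is known as a complex IV subunit, and 8 tissue-restricted isoforms or paralogs. Another 8 symbols with these prefixes, such as Ndufa11 and Ndufs6, lay only on probe sets shared with other genes and were not analysed here. The choice used names and not measured values.

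The arrays compared M19, the chromosome substitution strain written 129.MOLF-Chr 19 in the labels, with its host strain 129/Sv, called 129 here. M19 carries chromosome 19 of the wild-derived MOLF strain on the 129 background and is known for a high incidence of testicular germ cell tumours. Male genital ridges (fetal testes) were collected at E13.5, E15.5 and E17.5 from each strain, and 2 arrays were run for each of the 6 groups. No other allele or agent is given in the labels. The labels state that 40 pairs of testes were pooled for 2 arrays, so the arrays of a group may come from 1 pool, in which case the tests see technical spread alone. The tissue is bulk, so fewer cells of a type and less RNA per cell cannot be told apart. Each array gives a deposited log-scale signal, read here as log2, and the median signal of an array lay between 8.1 and 8.27.

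The germ cell list averaged 10.08 to 11.59 across the arrays and the 10 Sertoli cell genes averaged 10.87 to 11.08, so the markers of fetal testis were present. None of the marker lists held a gene at 0 on any array. At E15.5 the lists for epidermis, skeletal muscle and cartilage were higher in 129 than in M19. The 9 measured epidermis genes averaged 8.24 and 8.19 in M19 against 10.62 and 10.65 in 129, and the 19 muscle genes averaged 7.66 and 7.64 in M19 against 8.73 and 8.71 in 129. The 6 cartilage genes averaged 8.08 and 8.02 in M19 against 8.91 and 9.06 in 129. Their part in the differences at E15.5 was not tested.

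Oxidative phosphorylation passes electrons from NADH through complex I, and from succinate through complex II, to ubiquinone, then through complex III and cytochrome c to oxygen at complex IV. Complexes I, III and IV pump protons across the inner mitochondrial membrane, and complex V, the ATP synthase, uses the returning flow to make ATP. A few complex IV subunits have isoforms used mainly in testis, in heart and skeletal muscle, or in lung, and male germ cells are known to switch some of these during development. In this series 89 of the 94 genes had a mean signal above 8.17, the median over all probe sets. The brightness of a probe set depends on its probes as well as on the transcript, so no order of abundance between genes is read from it. The representative probe sets of Cox7c, Ndufb4, Cox6a2, Cox8b and Cox7b2 lay below that median.

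Promoter sequences were available in the RefSeq table (build GRCm38.p6, 250 bases before to 50 after the annotated start) for 78 of the 94 genes. Shown first is that of Cox7b2, the testis isoform of a complex IV subunit and the gene with the largest change over stages. Next is Ndufv1, the NADH-binding core subunit of complex I, which lies on the substituted chromosome and had the largest strain difference at any of the genes' probe sets. The last is Uqcrc1, a core protein of complex III that rose with stage. Capitals mark a searched motif, and the Ndufv1 sequence is that of the reference genome and not of MOLF.
Cox7b2, chr5:71548156-71548455, minus strand: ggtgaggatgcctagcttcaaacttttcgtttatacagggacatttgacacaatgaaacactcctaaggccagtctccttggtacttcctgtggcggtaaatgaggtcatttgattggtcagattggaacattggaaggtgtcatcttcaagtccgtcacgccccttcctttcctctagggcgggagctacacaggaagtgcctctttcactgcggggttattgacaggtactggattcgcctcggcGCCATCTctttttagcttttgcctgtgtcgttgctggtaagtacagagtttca
Ndufv1, chr19:4012706-4013005, minus strand: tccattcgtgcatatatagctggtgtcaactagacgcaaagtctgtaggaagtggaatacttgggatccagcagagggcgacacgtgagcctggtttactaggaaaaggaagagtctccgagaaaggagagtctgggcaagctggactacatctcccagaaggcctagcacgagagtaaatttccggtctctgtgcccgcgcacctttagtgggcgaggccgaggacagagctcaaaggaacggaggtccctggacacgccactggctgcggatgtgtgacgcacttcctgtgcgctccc
Uqcrc1, chr9:108936398-108936697, plus strand: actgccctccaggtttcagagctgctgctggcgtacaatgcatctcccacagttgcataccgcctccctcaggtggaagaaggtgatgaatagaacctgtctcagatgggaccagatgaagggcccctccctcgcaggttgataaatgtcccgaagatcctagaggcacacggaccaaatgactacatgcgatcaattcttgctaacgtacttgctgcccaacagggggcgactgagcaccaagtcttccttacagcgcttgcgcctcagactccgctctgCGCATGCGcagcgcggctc
The Cox7b2 window holds the searched YY1 letters once, and the Uqcrc1 window holds the NRF1 letters on both strands of an overlapping stretch. None of the searched letters is in the Ndufv1 window.

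The motifs were searched on both strands: NRF1 as GCATGCG, an ETS site as CCGGAAG, an estrogen-related receptor (ERR) site as AAGGTCA, and YY1 as AGATGGC. All of these factors are known regulators of nuclear genes for mitochondrial proteins. Of the 83 promoters of the oxidative phosphorylation genes, 14.5% held the NRF1 letters against 3.58% of all 32851 promoters in the table, and 26.5% held the ETS letters against 8.86%. The YY1 letters were in 14.5% against 6.4%, and the ERR letters in 9.64% against 4.72%. These promoters also held more CpG dinucleotides, a median of 20 against 7 over all promoters, and the shares were not adjusted for that. The matches describe the letters in the windows and were not set against binding.

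**Figure D1:**
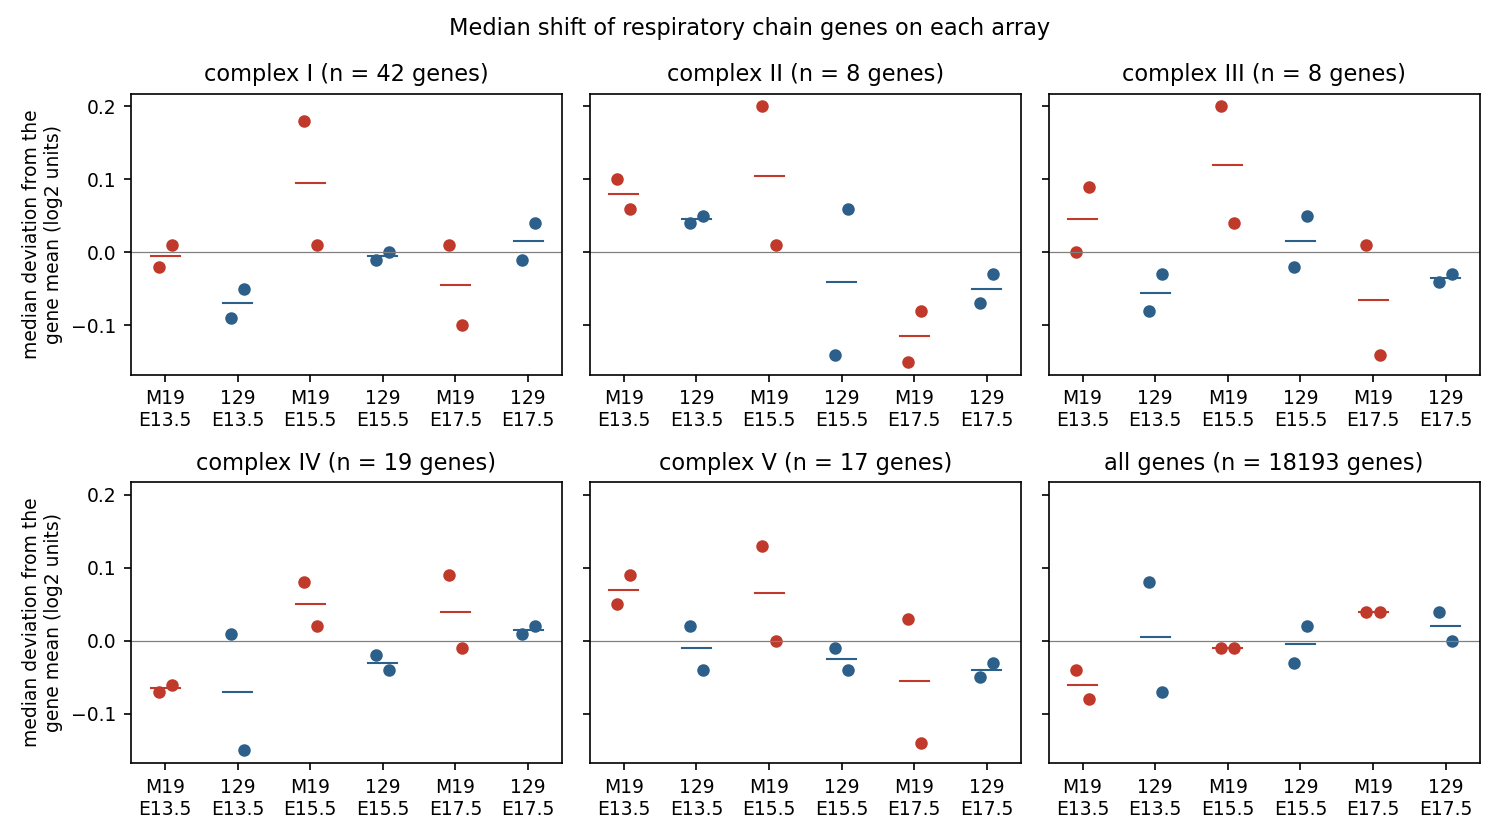
Median deviation of the genes of each complex, and of all genes, from their own means over 12 arrays (vertical axis, log2 units), by group (horizontal axis, M19 red, 129 blue). Points are arrays and lines are the mean of the 2 arrays. The first M19 array at E15.5 is the highest of all 12 in complexes I, II, III and V.

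The first question was whether the strains differed at each stage. As a whole, the oxidative phosphorylation genes had nearly the same signal in both strains. None of the 94 representative probe sets passed an adjusted p of 0.05 (limma, Benjamini-Hochberg adjustment over 45037 probe sets) for M19 against 129 at E13.5, E15.5 or E17.5, or averaged over the 3 stages. At an unadjusted p under 0.05 there were 2, 7, 0 and 5 genes, against 2.54%, 7.61%, 1.5% and 4.67% of all genes. Over all 18193 genes the share called was 0.033% at E13.5, 0.682% at E15.5, 0.0934% at E17.5 and 0.462% averaged over stages, so a count of 0 among 94 is close to that background. Averaged over stages, the difference M19 minus 129 lay between -0.17 and 0.32 log2 units, and 93 of the 94 genes differed by less than 0.2. With only 2 arrays a group, differences of this size at a single stage are within the error of the fit, whose median standard error was 0.13.

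By stage, the median difference of the 94 genes was 0.05 at E13.5, 0.10 at E15.5 and -0.04 at E17.5, against -0.06, 0.01 and 0.01 for all genes. At E15.5 the difference was above 0 in 72 of 94 genes, including 37 of 42 complex I genes, 5 of 8 in complex II, 6 of 8 in complex III, 13 of 19 in complex IV and 11 of 17 in complex V. This E15.5 shift sat on 1 array. The first M19 array at E15.5 had a median deviation of 0.16 and was above the second in 82 of the 94 genes (87.2%), while over all genes it was above the second in 56.6%. Without that array the median difference at E15.5 was 0.03, with 52 genes above 0, and without the second M19 array it was 0.16. The plot of median shifts by complex shows this array standing apart in complexes I, II, III and V.

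The largest E15.5 differences were those of Cox7c, a small complex IV subunit (0.44), Ndufa10, a complex I accessory subunit (0.39), and the complex I assembly factor Ndufaf4 (0.39 ± 0.17, adjusted p = 0.63 in limma). Ndufa10 had 11.76 and 11.67 in M19 against 11.32 and 11.33 in 129 at E15.5. The difference was 0.39 ± 0.11 (SE, n = 2 arrays each), with an adjusted p of 0.29 in limma. Its arrays were close at the other stages, with differences of -0.07 at E13.5 and 0.12 at E17.5. The dimmer probe set of Ndufa10 differed by only -0.03 ± 0.15 at E15.5 (SE, adjusted p = 0.99 in limma). Cox7c had 8.22 and 7.93 in M19 against 7.50 and 7.76 in 129 at E15.5, a difference of 0.44 ± 0.16 (SE, adjusted p = 0.47 in limma). Its average over stages, 0.32 ± 0.09, was the largest of the 94 genes and missed the threshold (adjusted p = 0.45 in limma). The Cox7c probe set is among those below the median signal.

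**Figure D2:**
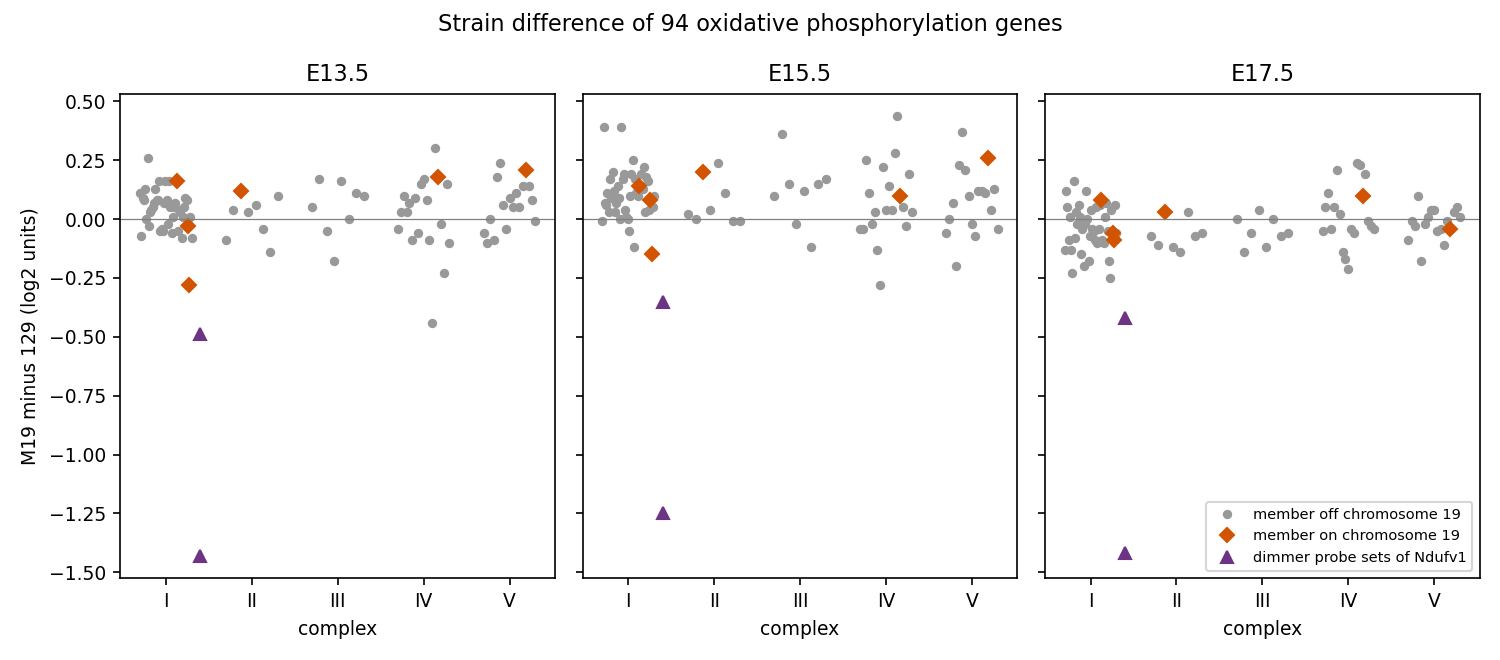
Difference M19 minus 129 (vertical axis, log2 units) for the representative probe sets of 94 genes by complex at each stage, with n = 2 arrays a group. Diamonds are the 6 genes on chromosome 19, and triangles are the 2 dimmer probe sets of Ndufv1, the lower of which lies between -1.43 and -1.25.

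Chromosome 19 is the segment that differs by design, and 6 of the 94 genes lie there. Averaged over stages, the difference M19 minus 129 was 0.14 for Atp5md, a small membrane subunit of the ATP synthase (95% interval 0.0 to 0.29). It was 0.13 for Cox8a, the general form of a complex IV subunit (-0.07 to 0.33), and 0.13 for Ndufb8, a complex I accessory subunit (-0.02 to 0.27). The dim second probe set of Ndufb8 had the opposite sign, -0.35 ± 0.08 (SE, adjusted p = 0.19 in limma). Among the 6 representatives only that of Ndufv1, given last, was lower in M19 by more than its standard error. Sdhaf2, an assembly factor that helps attach the flavin of complex II, differed by 0.12 (-0.05 to 0.28), and Ndufs8, an iron-sulfur core subunit of complex I, by -0.01 (-0.2 to 0.19). Ndufv1 differed by -0.17 (-0.32 to -0.02). None of the 6 representatives was called in the average over stages, where 6.24% of the 609 genes on chromosome 19 were. The intervals of the 6 representatives reached as far as -0.32 and 0.33 log2 units.

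Ndufv1 has 3 probe sets, and they gave different sizes. The brightest, 1415967_at, had 11.31 and 11.26 in M19 against 11.59 and 11.53 in 129 at E13.5. It had 11.67 and 11.67 in M19 against 11.83 and 11.81 in 129 at E15.5, and 11.50 and 11.55 in M19 against 11.48 and 11.76 in 129 at E17.5. Only at E17.5 did the strains overlap on this probe set, and it was not called at any stage. The second, 1456015_x_at, was lower in M19 by 0.49, 0.35 and 0.42 log2 units at the 3 stages (differences of -0.49, -0.35 and -0.42). It was called only in the average over stages (-0.42 ± 0.07 SE, adjusted p = 0.025 in limma), and that call was lost in 9 of the 12 fits that left out 1 array, with an adjusted p of up to 0.14.

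The dimmest probe set of Ndufv1, 1415966_a_at, stood apart between the strains on all 12 arrays. It had 9.85 and 9.85 in M19 against 11.25 and 11.31 in 129 at E13.5. It had 10.46 and 10.34 in M19 against 11.64 and 11.67 in 129 at E15.5, and 9.95 and 9.89 in M19 against 11.34 and 11.33 in 129 at E17.5. The lowest 129 array was thus above the highest M19 array of any stage. The difference was -1.43, -1.25 and -1.42 at the 3 stages (SE 0.10 each, adjusted p = 0.00037, 0.00018 and 0.00032 in limma). Its average of -1.37 ± 0.06 is a 2.58-fold lower signal of this probe set in M19. This call held in every fit that left out 1 array, with an adjusted p of at most 0.018 at E13.5. At E13.5 it was lost when only the compared arrays were fitted (adjusted p = 0.42).

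The strain gap of Ndufv1 was not shown to change over stages (strain by stage test, adjusted p = 1 for each of the 3 probe sets). When the value of a gene was the mean of all its probe sets, Ndufv1 became the only called gene of the 94 at each stage. Its differences were then -0.73, -0.58 and -0.64, with adjusted p = 0.012, 0.0062 and 0.013. Over the 53 genes with several probe sets, the strain difference varied between the probe sets of 1 gene by a median of 0.06, by 1.19 for Ndufv1 and by 0.47 for Ndufb8, the next widest. The sequences of the probes and the MOLF alleles were not analysed here. For Ndufv1 a strain difference in transcript level and one in the probed sequence therefore cannot be told apart. Of the 91 probe sets of these genes that were not representatives, 2 were called in the average over stages, both of Ndufv1 (background 0.501%). At the single stages the dimmest Ndufv1 probe set was the 1 called among them (background 0.0716% at E13.5, 0.681% at E15.5 and 0.119% at E17.5).

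**Figure D3:**
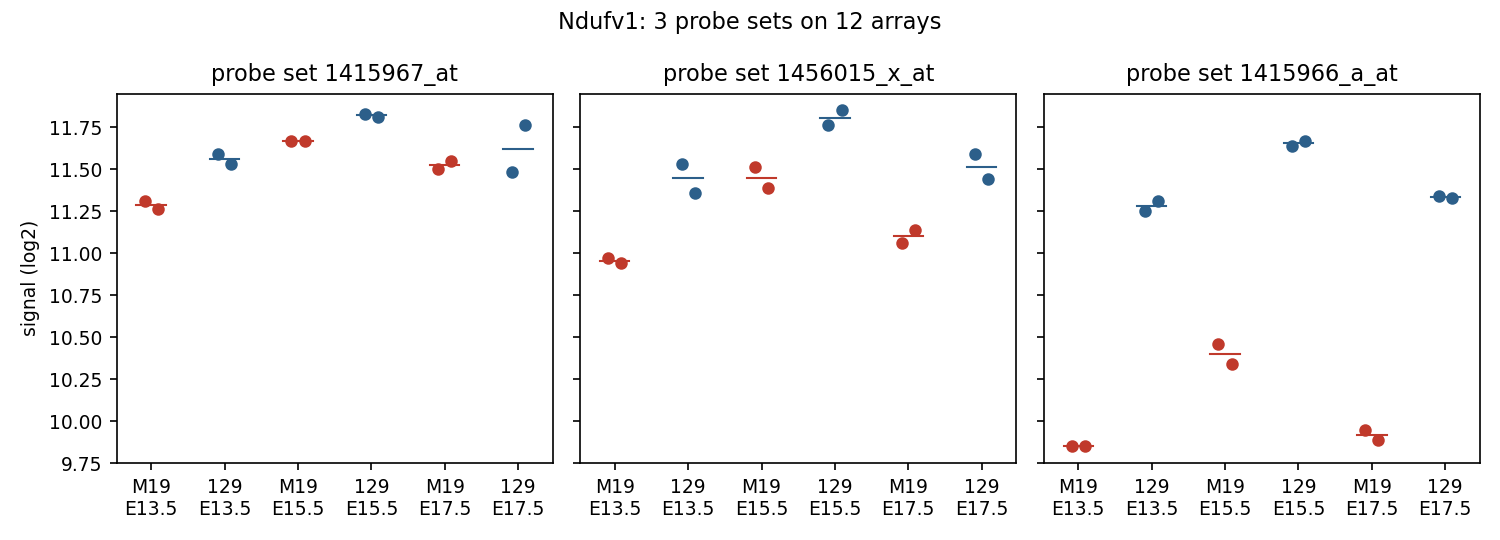
Signal (vertical axis, log2) of the 3 probe sets of Ndufv1 by group, M19 red and 129 blue, with points for arrays and lines for the mean of 2 arrays. The strains lie close on the left panel and are apart by 1.25 to 1.43 log2 units on the right panel.

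The second question was how the genes moved over stages in each strain. Cox7b2, a complex IV subunit isoform known from testis, rose at E15.5 in both strains and was the only one of the 94 genes called in all 6 comparisons of stages within a strain. It had 5.97 and 5.88 in M19 at E13.5, 9.35 and 8.84 at E15.5, and 8.09 and 7.94 at E17.5. In 129 it had 6.05 and 6.68 at E13.5, 8.71 and 8.93 at E15.5, and 7.70 and 7.84 at E17.5. The 3 stages did not overlap in either strain, with E15.5 highest and E13.5 lowest. E15.5 was higher than E13.5 by 3.17 ± 0.21 log2 units in M19, or 9.01-fold (SE, adjusted p = 7.1e-06 in limma), and by 2.46 ± 0.21 in 129, or 5.48-fold (adjusted p = 5.1e-05 in limma).

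E17.5 was lower than E15.5 for Cox7b2 in both strains, with differences of -1.08 ± 0.21 in M19 (adjusted p = 0.025 in limma) and -1.05 ± 0.21 in 129 (adjusted p = 0.033). These later falls were lost in 5 and 8 of the 12 fits that left out 1 array, with an adjusted p of up to 0.29 and 0.21, while the early rise held in all 12 in each strain. The rise was 0.72 larger in M19 than in 129, but the strain by stage test did not pass (unadjusted p = 0.06, adjusted p = 1). None of the 94 genes was called in that test, where 0.203% of all genes were, and 2 had an unadjusted p under 0.05 (3.32% of all genes).

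The germ cell list, of which 8 of 10 genes were measured, moved with Cox7b2. Its mean was 10.08 and 10.11 in M19 at E13.5, 11.59 and 11.50 at E15.5, and 10.48 and 10.66 at E17.5. In 129 it was 10.34 and 10.49 at E13.5, 11.25 and 11.45 at E15.5, and 10.55 and 10.54 at E17.5. At E15.5 against E13.5, 6 of the 8 genes were called higher and 0 lower in M19, and 5 higher and 1 lower in 129, where the shares over all genes were 7.4% in M19 and 6.3% in 129. Its part in the rise of Cox7b2 was not tested. Cyct, the testis form of cytochrome c, peaked at E15.5 as well in M19, with 8.11 and 8.23 at E13.5, 9.17 and 8.85 at E15.5, and 8.04 and 8.17 at E17.5. It was called in both steps in M19 (0.84 ± 0.19, adjusted p = 0.029, then -0.90 ± 0.19, adjusted p = 0.04, in limma). In 129 the same steps of Cyct were 0.30 and -0.39 and were not called. Of the 12 measured cytochrome c and ubiquinone genes, 3 were called higher in the first M19 step (5.74% of all genes). In the second, 2 were called lower (1.79% of all genes), and in 129 the count was 0 in both steps. In the strain by stage test 0 of the 12 were called (0.203% of all genes), so a strain difference in these steps was not shown.

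The other testis isoforms of complex IV did not share this course. Cox6b2 had 9.92 and 9.96 in M19 at E13.5, 9.77 and 9.59 at E15.5, and 9.39 and 9.30 at E17.5. Cox6b2 in 129 had 10.23 and 9.78 at E13.5, 9.80 and 10.11 at E15.5, and 9.58 and 9.40 at E17.5. Its E17.5 arrays were the lowest in each strain, and the span E17.5 minus E13.5 averaged over strains was -0.56 ± 0.12 (SE, adjusted p = 0.0059 in limma). Cox8c ranged between 10.11 and 10.70 over the 12 arrays and was not called (0.30 ± 0.12, adjusted p = 0.12).

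Of the heart and skeletal muscle isoforms, only Cox7a1 was called over the span averaged over strains, where 27.3% of all genes were. The spans of Cox6a2 and Cox8b had the same sign, at 0.17 and 0.08. Cox7a1 had 8.08 and 8.30 in M19 at E13.5, 8.86 and 8.49 at E15.5, and 8.66 and 8.56 at E17.5. The 129 arrays had 7.94 and 8.10 at E13.5, 8.46 and 8.82 at E15.5, and 8.84 and 8.81 at E17.5. The E13.5 arrays were the lowest in each strain, with a span of 0.61 ± 0.11 averaged over strains (SE, adjusted p = 0.0032 in limma) and 0.80 ± 0.16 in 129 alone (adjusted p = 0.01). Cox6a2 stayed between 6.71 and 7.19 and Cox8b between 7.57 and 7.93 on all 12 arrays, both not called. At E15.5, where the muscle list was higher in 129, M19 minus 129 was 0.03 for Cox6a2 and 0.05 for Cox8b. Cox4i2, known from lung, was not called either (0.23 ± 0.10, adjusted p = 0.12).

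Of the 6 general paralogs measured, Ndufa4 and Cox6a1 were called over the span, where 27.3% of all genes were. Cox4i1, the general form of its subunit, lay between 13.23 and 13.53 on the 12 arrays, and Cox6b1 had a span of 0.05 ± 0.11. Cox7a2 and Cox8a were not called, with spans of -0.16 and 0.19. Cox6a1 had a span of 0.24 ± 0.08 (adjusted p = 0.042 in limma), a call lost in 11 of the 12 fits that left out 1 array.

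**Figure D4:**
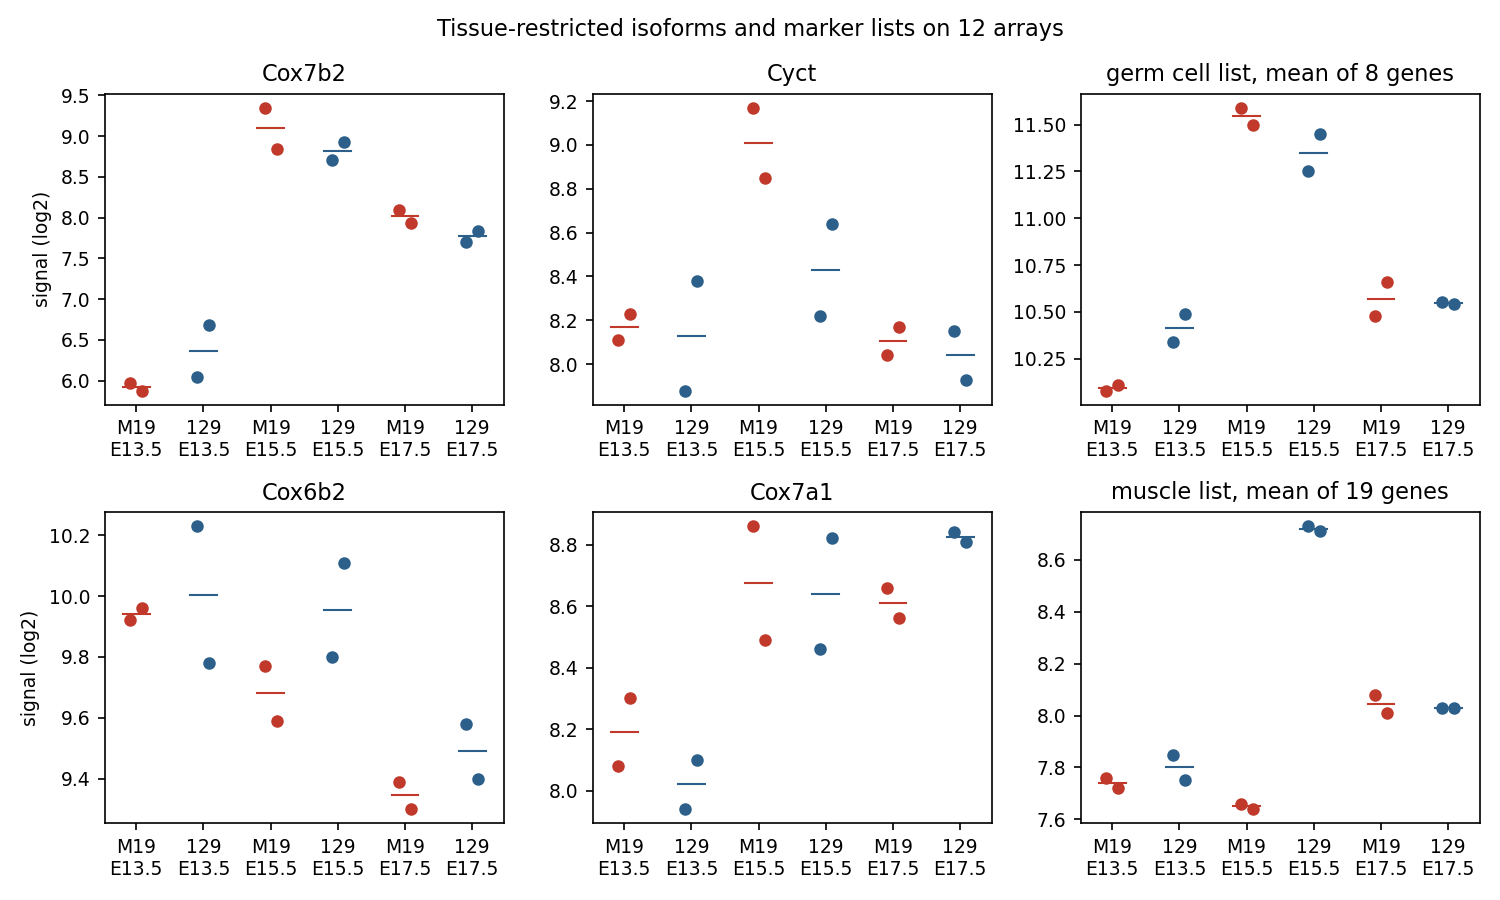
Signal (vertical axis, log2, a separate scale in each panel) by group for Cox7b2, Cyct, the mean of 8 germ cell genes, Cox6b2, Cox7a1 and the mean of 19 muscle genes, with points for arrays and lines for the mean of 2 arrays. Cox7b2 lies between 5.88 and 6.68 at E13.5 and between 8.71 and 9.35 at E15.5.

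Apart from Cox7b2, few genes were called in a single step. At E15.5 against E13.5, 2 of 94 genes rose and 0 fell in M19 (2.13%, against a background of 7.4%, with 5.74% higher and 1.66% lower), Cox7b2 and the complex I assembly factor Ndufaf5. Ndufaf5 had 8.94 and 8.87 at E15.5 against 8.47 and 8.45 at E13.5 in M19, a difference of 0.44 ± 0.11 (adjusted p = 0.04 in limma) that was lost in 10 of the 12 fits that left out 1 array (adjusted p up to 0.28). In 129 only Cox7b2 was called in this step (background 6.3%, with 4.46% higher and 1.84% lower).

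At E17.5 against E15.5, 3 of 94 genes fell and 0 rose in M19 (3.19%, against a background of 3.23%, with 1.79% lower and 1.45% higher). Besides Cox7b2 these were Atp5g1, 1 of 3 genes for the c subunit of the ATP synthase ring, and Ndufaf1, a complex I assembly factor. Atp5g1 had 11.76 and 11.38 at E17.5 against 12.33 and 12.12 at E15.5 in M19 (-0.66, adjusted p = 0.049 in limma), and Ndufaf1 had 9.26 and 9.39 against 10.11 and 9.83 (-0.64, adjusted p = 0.042). Both calls were lost without the first M19 array at E15.5, the array on which most of the 94 genes were high. No gene of the 94 was called in this step without it, nor without either M19 array at E13.5 or E17.5, and 1 was called without the second M19 array at E15.5 or either 129 array at E17.5. The median difference of the 94 genes in this step was -0.04 without the first M19 array at E15.5, against -0.14 with it. The second M19 array at E17.5 was low, with a median deviation of -0.09 and 26 of the 94 genes above their own mean. Without that E17.5 array the Atp5g1 difference was -0.47, and without the first M19 array at E17.5 it was -0.85. In 129 Cox7b2 alone was called lower (background 2.42%, with 1.24% lower and 1.18% higher).

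Over the whole span, E17.5 against E13.5, 4 genes rose and 6 fell in M19 (10.6% of the 94, against a background of 15.4%, with 10.2% higher and 5.26% lower). In 129, 2 rose and 0 fell (2.13% against 10.9%, with 6.9% higher and 4% lower). The genes that rose were Cox7b2, Uqcrc1, Ndufb4 and Cox7a2l in M19, and Cox7b2 and Cox7a1 in 129. The genes that fell in M19 were Ndufaf4, Cox6b2, Ndufa4, Ndufa5, Sdhaf4 and Sdhaf1. The M19 count depended on single arrays: 1 gene, Cox7b2, was called without either M19 array at E13.5, 3 and 2 without the first and the second M19 array at E17.5, and 15 without either 129 array at E13.5. It was 5 without either M19 array at E15.5. The 129 count was 1, Cox7b2, without either 129 array at E17.5. The 129 arrays at E13.5 do not enter the M19 difference and moved its count only through the spread that all groups share. Over all genes the 2 arrays of that 129 group had a median absolute difference of 0.25, against 0.07 in M19 at E13.5. The shared standard error is therefore not that of the compared arrays alone. Scaling moved the M19 split as well, to 3 higher and 9 lower under quantile normalization and 1 higher and 8 lower under median centring.

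Averaging the span over both strains gave 22 called genes, 10 higher and 12 lower, or 23.4% of the 94 against a background of 27.3% (16.3% higher and 10.9% lower). The split was 10 higher and 15 lower under quantile normalization, and 7 higher and 15 lower under median centring. The median span of the 94 genes was -0.01, and of all genes 0.06. By complex, 5 genes of complex I rose and 4 fell, 2 of complex II fell, 1 of complex III rose, 4 of complex IV rose and 4 fell, and 2 of complex V fell. The count was 12 without either M19 array at E13.5, and 14 without the second 129 array at E17.5. Calls held in all 12 fits that left out 1 array for Cox7b2, Cox7a1, Ndufb4, Cox7a2l, Ndufb11, Ndufb9, Ndufaf4, Cox6b2, Cox7c, Ndufa4, Sdhaf1 and Cox5a.

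**Figure D5:**
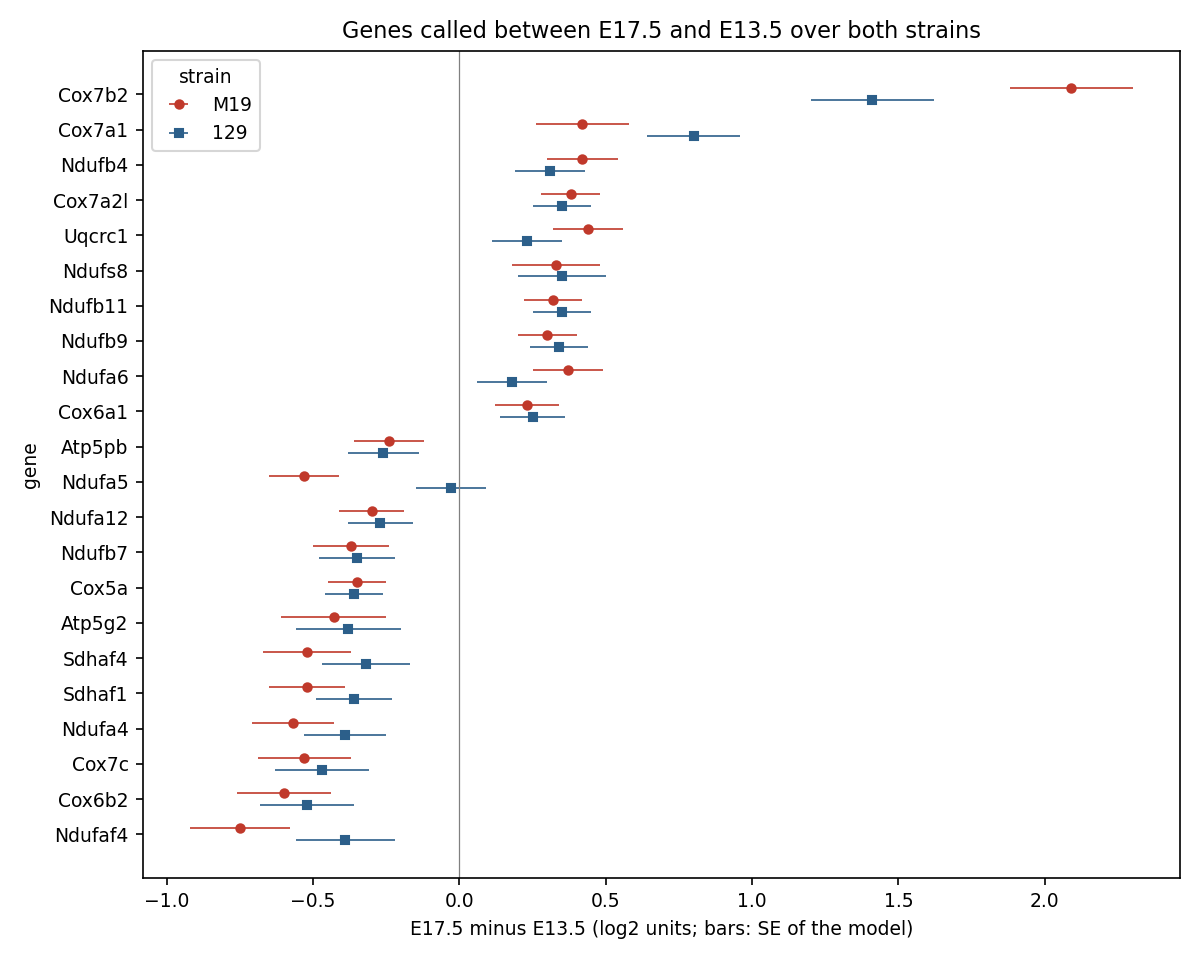
Difference E17.5 minus E13.5 (horizontal axis, log2 units) for the 22 genes called over both strains, with circles for M19, squares for 129 and bars for the standard error of the fit (n = 2 arrays a group). Cox7b2 has the largest span, 2.09 in M19 and 1.41 in 129, and Ndufa5 has -0.53 in M19 and -0.03 in 129.

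In complex I the genes that rose were Ndufs8 and 4 accessory subunits, Ndufb4, Ndufb9, Ndufb11 and Ndufa6. Ndufb11, an accessory subunit encoded on the X chromosome, had 12.55 and 12.55 in M19 at E13.5, 12.89 and 12.82 at E15.5, and 12.86 and 12.89 at E17.5. The same probe set had 12.58 and 12.55 at E13.5, 12.75 and 12.75 at E15.5, and 12.97 and 12.86 at E17.5 in 129. The E13.5 arrays were the lowest of both strains, and the span was 0.33 ± 0.07 (SE, adjusted p = 0.0074 in limma). Ndufb9 had a span of 0.32 (adjusted p = 0.0093), and Ndufb4, on a dim probe set, 0.37 (adjusted p = 0.0083). Ndufs8 rose by 0.34 (adjusted p = 0.042), with the same sign on all of its 6 probe sets, though the call was lost in 6 of the 12 fits that left out 1 array and under median centring (adjusted p = 0.096).

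The complex I genes that fell were the accessory subunits Ndufb7, Ndufa12 and Ndufa5 and the assembly factor Ndufaf4. Ndufaf4 had 9.93 and 9.94 in M19 at E13.5, 9.76 and 9.46 at E15.5, and 9.03 and 9.35 at E17.5. In 129 it had 9.61 and 9.94 at E13.5, 9.07 and 9.39 at E15.5, and 9.36 and 9.41 at E17.5. The E17.5 arrays were all below the E13.5 arrays, and the span of -0.57 ± 0.12 (adjusted p = 0.0061 in limma) was the largest fall of the 94 genes. Ndufa5 had 11.26 and 11.32 in M19 at E13.5, 11.20 and 10.99 at E15.5, and 10.78 and 10.74 at E17.5. Its 129 arrays overlapped between stages, with a span of -0.03 ± 0.12 in 129 against -0.53 ± 0.12 in M19. The strain by stage test for Ndufa5 did not pass (unadjusted p = 0.031, adjusted p = 1). Ndufv2, the iron-sulfur partner of Ndufv1, was not called on its representative probe set (-0.28, adjusted p = 0.057), but its 2 other probe sets were (-0.45 and -0.43, adjusted p = 0.0027 and 0.0047).

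In complex II the 4 enzyme subunits were not called, and 2 of the 4 assembly factors fell. Over all genes 27.3% were called in this span and 10.9% fell, and counts this small do not set these classes apart. Sdhaf1 and Sdhaf4 help to mature the iron-sulfur and the flavoprotein subunits. Sdhaf1 had 9.20 and 9.21 in M19 at E13.5, 8.97 and 8.80 at E15.5, and 8.62 and 8.76 at E17.5. Sdhaf1 in 129 had 9.02 and 9.31 at E13.5, 8.83 and 8.95 at E15.5, and 8.75 and 8.85 at E17.5. In M19 the stages did not overlap, with E17.5 lowest, while in 129 E17.5 overlapped with E15.5. The span over both strains was -0.44 ± 0.09 (adjusted p = 0.0064 in limma), and Sdhaf4 had a span of -0.42 ± 0.11 (adjusted p = 0.016). The subunits Sdha, Sdhb and Sdhc had spans of 0.04, 0.00 and 0.01, and Sdhd, a membrane anchor, -0.23 (adjusted p = 0.099). Sdha has 2 dim further probe sets that were called in opposite directions (-0.57 and 0.29), the widest range between the probe sets of any of the 53 genes.

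Against a background of 27.3% of all genes in this span, only Uqcrc1 was called among the 8 complex III genes with the Uqcr prefix. The complex III subunit gene Cyc1, which lacks that prefix, is given below with another list. It had 11.83 and 11.88 in M19 at E13.5, 12.19 and 12.22 at E15.5, and 12.32 and 12.28 at E17.5. In 129 it had 12.01 and 12.06 at E13.5, 12.23 and 12.22 at E15.5, and 12.11 and 12.42 at E17.5. The span was 0.34 ± 0.09 (SE, adjusted p = 0.017 in limma), and the E13.5 arrays were the lowest of each strain. The call was lost in 4 of the 12 fits that left out 1 array, with an adjusted p of up to 0.071.

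In complex IV the genes that rose were Cox7b2, Cox7a1, Cox6a1 and Cox7a2l, which is known to join complexes III and IV in supercomplexes. Cox7a2l had 12.34 and 12.35 in M19 at E13.5, 12.64 and 12.72 at E15.5, and 12.68 and 12.77 at E17.5. The 129 values were 12.42 and 12.45 at E13.5, 12.64 and 12.63 at E15.5, and 12.83 and 12.74 at E17.5. Its 2 later stages lay above E13.5 on all arrays, the span was 0.36 ± 0.07 (adjusted p = 0.005 in limma), and its 2 other probe sets rose by 0.31 and 0.36. The genes that fell were Cox6b2, Cox7c, Cox5a and Ndufa4. Ndufa4 had 12.74 and 12.76 in M19 at E13.5, 12.59 and 12.31 at E15.5, and 12.36 and 12.00 at E17.5, and its span over both strains was -0.48 ± 0.10 (adjusted p = 0.0061). Cox5a, a subunit on the matrix side, had spans of -0.35 in M19 and -0.36 in 129, each not called alone, and -0.36 over both (adjusted p = 0.0057). Cox7c had a span of -0.50 ± 0.11 (adjusted p = 0.0089).

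In complex V none of the 5 F1 subunits was called, and 2 of 12 membrane and stalk subunits fell. Over all genes 27.3% were called in this span and 10.9% fell. Atp5g2, another gene of the c subunit, had a span of -0.41 ± 0.12 (adjusted p = 0.039 in limma), and Atp5pb, the b subunit of the stalk, -0.25 ± 0.08 (adjusted p = 0.047). Both calls were among those lost most often when 1 array was left out, in 8 and 10 of 12 fits. On the second M19 array at E17.5 only 1 of 17 complex V genes was above its own mean. The span of Atp5g2 was -0.27 without that array and -0.55 without the first M19 array at E17.5. Atp5g3, the third gene of the c subunit, was not called (0.13 ± 0.07, adjusted p = 0.24 in limma).

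Of the 22 called genes, 13 had further probe sets, and 23 of those 24 probe sets had the same sign as the representative. Of these, 14 were called (background 22.7% for probe sets that were not representatives). The exception was a dimmer probe set of Ndufb9, at -0.14 against 0.32. Among the genes not called, 5 had other probe sets that were called, 7 probe sets in all.

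The representative with the highest signal in each complex changed little. Ndufc2, a complex I accessory subunit, lay between 12.7 and 13.07 on the 12 arrays with a span of 0.10 ± 0.08, and Sdhb, the iron-sulfur subunit of complex II, between 11.98 and 12.30 with a span of 0.00 ± 0.08. Uqcrb, a complex III subunit, lay between 13.43 and 13.75 with a span of 0.00 ± 0.09, and Atp5g3 between 13.74 and 13.94. None of these 4 was called between strains or over the span. Only Cox6a1, the highest in complex IV, was called over the span, where 27.3% of all genes were.

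Other lists tied to respiration were counted in the same span, where 16.3% of all genes rose and 10.9% fell (27.3% in all). In the assembly list for complex IV, 0 of 20 genes rose and 2 fell, Cox19 (-0.42) and Pet100 (-0.45). In the list of cytochrome c and ubiquinone genes, 3 of 12 rose, Cycs (0.30), Coq9 (0.33) and Hccs (0.46), and 1 fell, Cyc1 (-0.35). Cyc1 encodes the cytochrome c1 subunit of complex III, and its symbol lies outside the prefixes used here. Among 16 regulators of mitochondrial biogenesis, 1 rose, Esrrg (0.36), and 4 fell, the coactivator Ppargc1a (-0.54), Gabpb1 (-0.46), Esrrb (-0.49) and Tfam (-0.46), the mitochondrial DNA packaging factor. The median span of that list was -0.24, and of all genes 0.06.

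Against the same background of 16.3% higher and 10.9% lower, the lists for the tricarboxylic acid cycle and for glycolysis held calls in both directions. In the cycle list the share was close to that background. That list also holds the pyruvate enzymes Pcx and Pdha1, which are not steps of the cycle itself. In it 3 of 18 genes rose, Pcx (1.03), Suclg1 (0.33) and Ogdh (0.26), and 2 fell, Pdha1 (-0.46) and Idh2 (-0.23). The glycolysis list also holds glucose and lactate transporters, the Slc genes. In it 8 of 18 rose, with Aldoc (1.71), Slc2a3 (0.72), Slc16a3 (0.68) and Hk1 (0.66) among them. Another 3 fell, Slc16a1 (-0.60), Ldhb (-0.53) and Slc2a1 (-0.41). The median span of the glycolysis list was 0.23. None of the genes in these respiration and metabolism lists was called between the strains averaged over stages, where 0.462% of all genes were. Of genes encoded in mitochondrial DNA only ND5 was measured on its own probe set, and it was not called in any comparison.

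Marker lists of other cell types were counted over the same span, against 16.3% of all genes higher and 10.9% lower. The fetal Leydig list of 6 genes was at 10.99 and 10.99 in M19 at E13.5, 12.57 and 12.56 at E15.5, and 12.94 and 12.99 at E17.5, and all 6 rose in the average over strains. The red blood cell list had a median span of -2.25, with 3 of 6 genes lower and 1 higher. The mesonephric duct list had 3 of 6 genes lower and 0 higher, and in the germ cell list 5 of 8 rose and 3 fell. The part of these lists in the spans of the oxidative phosphorylation genes was not tested.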

How the data were processed

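Total RNA of pooled fetal testes was hybridised by the authors to Affymetrix mouse arrays, 12 in all. The deposited values are on a log scale, taken here as log2 from their range. The background correction, summarisation and normalization are not given in the sources used here, and the log base is not stated, so a fold change rests on that reading. Of 45101 probe sets 64 controls were left out. Of the other 45037, 34945 were annotated to 1 gene, 932 to several and 9160 to none, and 18032 of 18193 genes matched RefSeq. Means of the 6 groups were fitted on all 12 arrays with limma 3.58.1 in R 4.3.3 (eBayes, 6 residual and 4.82 prior degrees of freedom), and p-values were adjusted by Benjamini-Hochberg over 45037 probe sets, with a threshold of 0.05. Errors are standard errors of that fit, with signs set as M19 minus 129 and as the later minus the earlier stage. Precision is limited by the array number, 2 a group. The fit was tested on simulated data. Tables were handled with Python 3.11.15 and pandas 2.3.3.

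Named genes were up to 5 called members in each direction per comparison with the largest difference, the chromosome 19 members, tissue-restricted isoforms with their general paralogs, and the brightest members. Other genes named above, such as Ndufv2, Ndufa10 and the dim probe sets, were chosen after their values were seen. The members and lists were chosen with earlier results of these data known. Alternatives changed the normalization, the dim probe sets, the variance model, the probe set summary, the arrays fitted, the replicate block and single arrays.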

Additional observations from a re-analysis of the deposited data

How the results depend on the processing

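None of the 45 called differences of single genes that were followed changed sign under the alternatives run. They were picked as called on the same arrays, so a change of sign was unlikely from the start. Apart from the fits that left out 1 array, a call was lost in 21 pairs of a difference and a setting. Of the 35 followed differences that were not called, several changed sign under some setting. This was mostly where 1 array was left out, such as Ndufv1 at E17.5 (-0.24 to 0.05). The counts of called genes moved as follows. At E15.5 against E13.5 in M19 the count was 2 in the reported fit, 1 under quantile normalization, under median centring, without dim probe sets and with the replicate block, 7 with trended and robust variances, 5 with the mean of all probe sets and 5 with the compared arrays alone. In 129 that step gave 1, against 2 without dim probe sets, 4 with trended variances and 6 with the mean of all probe sets. At E17.5 against E15.5, M19 gave 3, and 5 with the mean of all probe sets, and 129 gave 1, against 0 under median centring and without dim probe sets and 2 with the mean of all probe sets. For E17.5 against E13.5, M19 gave 10, and 17 both with trended variances and with the mean of all probe sets, and 129 gave 2, against 5 without dim probe sets, 7 with trended variances and 8 with the mean of all probe sets. Between the strains the count of 0 became 1, Ndufv1, at each stage and in the average with the mean of all probe sets.

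Leaving out each array in turn gave 0 to 0 genes in the 4 strain comparisons and the strain by stage test. It gave 1 to 2 genes at E15.5 against E13.5 in each strain, 0 to 3 in M19 and 0 to 1 in 129 at E17.5 against E15.5, and 1 to 15 in M19, 1 to 3 in 129 and 12 to 22 averaged over strains for E17.5 against E13.5. A group left with 1 array is assumed to vary like the others. Replicate numbers did not pair the arrays in the same way over all groups. Over 15 pairs of groups the deviations of same-numbered arrays correlated between -0.37 and 0.54, with 6 over 0.1. The highest were 0.539, 0.505 and 0.538, among 129 at E13.5, 129 at E15.5 and M19 at E17.5. The replicate block gave 9 genes in M19 and 20 averaged over strains for the whole span. The causes of these shifts were not tested.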
